A study of Neotoma lepida with 16 samples.

Results

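Srebf1 and the enzymes of hepatic fatty acid synthesis were followed in the livers of 16 desert woodrats (Neotoma lepida), a herbivorous rodent. The set named 10 genes, Srebf1, Acaca, Acacb, Fasn, Acly, Me1, Thrsp, Gpam, Dgat2 and Mlxipl, and took every array probe that carries one of these gene names. It held 16 of the 41012 distinct probes of a rat array, for 9 of the 10 genes, among 35561 gene or transcript names on the array. Of these 16 probes, 15 were bright enough to be tested. Mlxipl was not found under that name, and its older symbol Wbscr14 is described with the regulators below.

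The animals were wild-caught from 2 populations, the Great Basin and the Mojave, and each population was split between 2 plants, creosote bush and juniper. All animals lived in captivity for 3 months on rabbit chow and then ate chow with a rising amount of the plant for 5 days. The 4 groups, Great Basin on creosote, Great Basin on juniper, Mojave on creosote and Mojave on juniper, held 4 animals each, and each array compared the liver RNA of 1 animal with a pool of all 16. No group fed chow alone was analysed here, so a difference between the plants does not say which of them moved a transcript from its level on chow. The words rose, up and fell below mean only higher or lower on creosote than on juniper. Among Mojave animals the creosote group had males only, while the remaining groups were balanced, with 2 of each sex. The animals were caged individually, and their ages are not given in the labels.

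The liver makes fatty acids from surplus carbohydrate. ATP citrate lyase (Acly) supplies acetyl-CoA, acetyl-CoA carboxylase (Acaca) turns it into malonyl-CoA, and fatty acid synthase (Fasn) builds palmitate from it with NADPH, part of which comes from malic enzyme (Me1). Srebf1 encodes the transcription factor SREBP-1, which is released from the endoplasmic reticulum by SCAP, is held back by the INSIG proteins, and induces these enzymes when insulin is high. Gpam and Dgat2 catalyse the first and the last step of triglyceride assembly.

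Each value below is a log2 ratio of 1 animal over the pool, so 0 is the level of the pool and 1 is a doubling. The arrays carry rat probes, and the match of a woodrat transcript to its probe affects the signal, so the level of one probe is not set against that of another. Between 45.6% and 75.9% of probes were well above background on an array, and all 4 arrays of 1 slide were the dimmest, with a mean of 48.5% against 65.5% to 71.3% for the other slides. Each slide held 1 animal of every group. Within each slide the creosote animals always lay in 2 of the positions and the juniper animals in the other 2, so the position on the slide and the diet cannot be told apart. Nothing in the labels ties animals to litters. The limma p-values rest on the spread among animals within groups, pooled over the 4 groups and moderated across probes.

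Among the 15 tested probes, 4 were higher on creosote than on juniper in Great Basin animals and 0 were lower (limma, Benjamini-Hochberg adjusted over all tested probes, threshold 0.05). Of all 30154 tested probes, 3.92% were called in that comparison, 2.03% as higher and 1.9% as lower. In Mojave animals 3 of the 15 were higher on creosote and 0 were lower, where 10% of all probes were called with 3.81% higher and 6.24% lower. Bright probes were called more often. When only the 17072 probes above background on all 16 arrays were tested, 1232 were called in Great Basin animals, 645 as higher. In Mojave animals 3130 of them were called, 1169 as higher. Most of the 15 probes were this bright. The calls of the set came from Srebf1, Acaca and Fasn in both populations, although the Fasn call came from a different probe in each. The other 6 genes of the set had 0 calls in either population. The median difference of the 15 probes was 0.05 in Great Basin and 0.02 in Mojave animals, against -0.0035 and -0.0069 over all probes, so most of the set lay near the middle of the array and a few probes stood far above it.

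**Figure D1:**
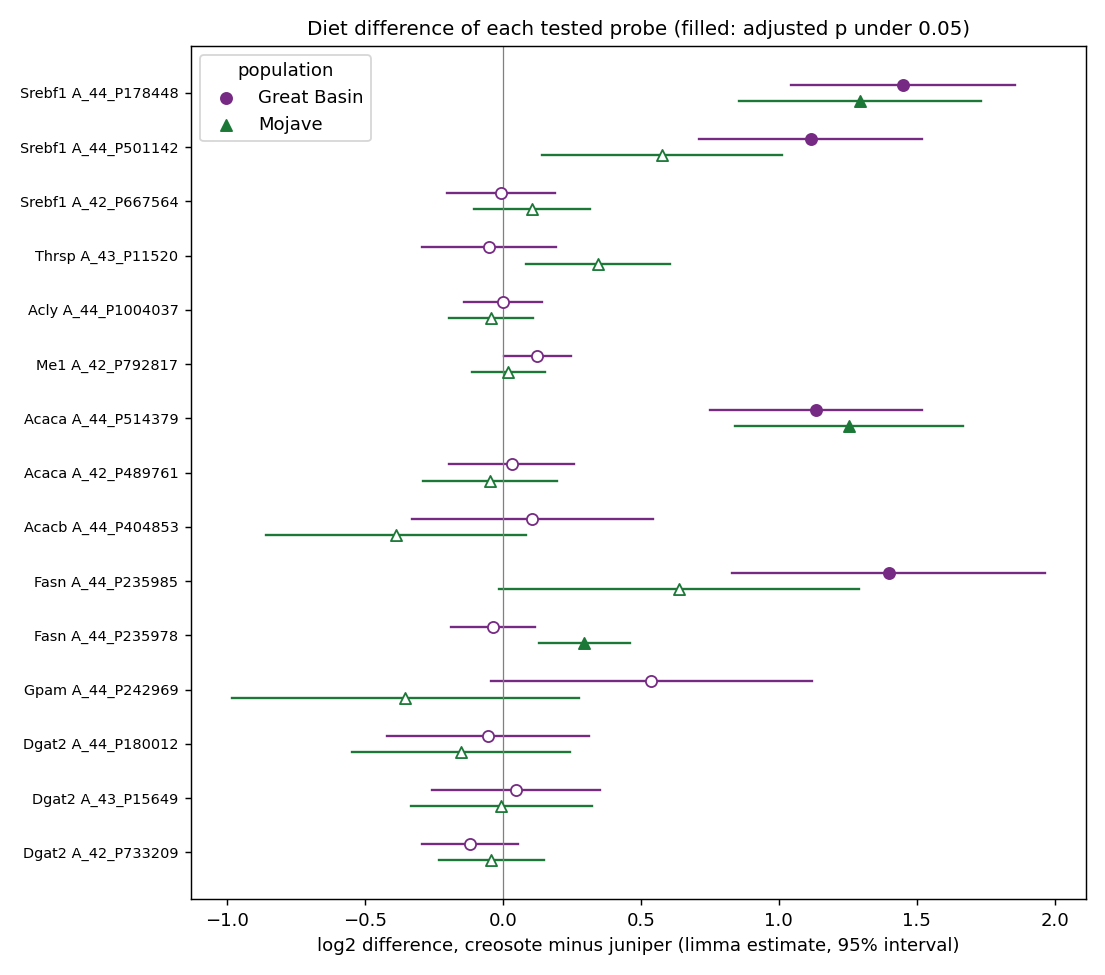
Log2 difference between creosote and juniper (horizontal axis) for each of the 15 tested probes (vertical axis), with the limma estimate and its 95% interval in Great Basin (circles) and Mojave (triangles) animals, and filled symbols for an adjusted p under 0.05. The brighter Srebf1 and Acaca probes are filled in both populations, and the probes of Acly, Me1, Gpam and Dgat2 are open in both.

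Srebf1 was measured by 3 probes. The brightest, A_44_P178448, was well above background on all 16 arrays. In the Great Basin animals on creosote it stood at 0.91, 0.27, 0.83 and 1.20, and in those on juniper at -0.46, -0.44, -0.65 and -1.03. Every creosote animal lay above every juniper animal, and above the pool. The difference was 1.45 ± 0.19 (SE, n = 4 and 4), a 2.73-fold higher level on creosote (limma adjusted p = 0.000483). The Mojave animals on creosote stood at 0.19, 0.47, 0.22 and 0.78, and those on juniper at -0.85, -0.42, -0.92 and -0.99. Again the groups did not overlap, and the difference was 1.29 ± 0.21 (SE), or 2.45-fold (limma adjusted p = 0.00129). Within the 4 slides the creosote animal was higher by 0.72 to 1.86 in Great Basin pairs and by 0.89 to 1.78 in Mojave pairs. Without any single animal the difference stayed between 1.33 and 1.62 in Great Basin and between 1.17 and 1.52 in Mojave animals, and it passed the threshold each time.

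The size of the Srebf1 response was not resolved between the populations by this probe. The Mojave difference minus the Great Basin difference was -0.16 ± 0.28 (SE; limma adjusted p = 0.868), with a 95% interval from -0.75 to 0.44. On creosote the Mojave animals lay 0.31 ± 0.21 (SE) below the Great Basin animals, and on juniper 0.15 ± 0.19 (SE) below, with limma adjusted p-values of 0.544 and 0.9.

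A second Srebf1 probe, A_44_P501142, is printed 10 times on each array. Its 10 spots differed little, with an SD between 0.022 and 0.064 within an array, so its values carry little spot error. Great Basin animals on creosote stood at 0.45, -0.11, 0.45 and 0.42, and those on juniper at -0.75, -0.68, -0.78 and -1.05. Creosote animal 2 was set apart below the other 3 of its group, yet above all juniper animals. The difference was 1.12 ± 0.19 (SE; limma adjusted p = 0.00311).

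In Mojave animals the same probe gave -0.96, -0.39, 0.08 and 0.03 on creosote, and -0.89, -0.68, -0.71 and -1.0 on juniper. Creosote animal 1 fell inside the juniper range, and the other 3 creosote animals lay above it. The difference was 0.58 ± 0.20 (SE) and did not pass the threshold (limma adjusted p = 0.0951). Without Mojave creosote animal 1 it was 0.79 and passed (limma adjusted p = 0.00644). The population difference in the response was -0.54 ± 0.28 (SE; limma adjusted p = 0.42), with a 95% interval from -1.13 to 0.05.

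The paired probes of Srebf1 did not move in step in every animal. The brighter probe exceeded the 10-spot probe by 1.15, 0.86, 0.14 and 0.76 in Mojave animals on creosote, and by 0.38 to 0.78 in Great Basin animals on creosote. On juniper the gap lay between -0.21 and 0.29. Both probes carry the same transcript accession in the array design. The gap was thus largest in Mojave creosote animal 1, whose brighter probe read 0.19 and whose 10-spot probe read -0.96. Whether the probes read the same woodrat transcript was not tested. The third Srebf1 probe, A_42_P667564, was well above background on 9 of 16 arrays and differed by -0.01 ± 0.09 (SE) in Great Basin and 0.11 ± 0.10 (SE) in Mojave animals, neither past the threshold. With the deposited values this dim Srebf1 probe gave -0.49 ± 0.61 and 1.36 ± 0.66 (SE; limma adjusted p = 0.734 and 0.263), so its difference was poorly determined.

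**Figure D2:**
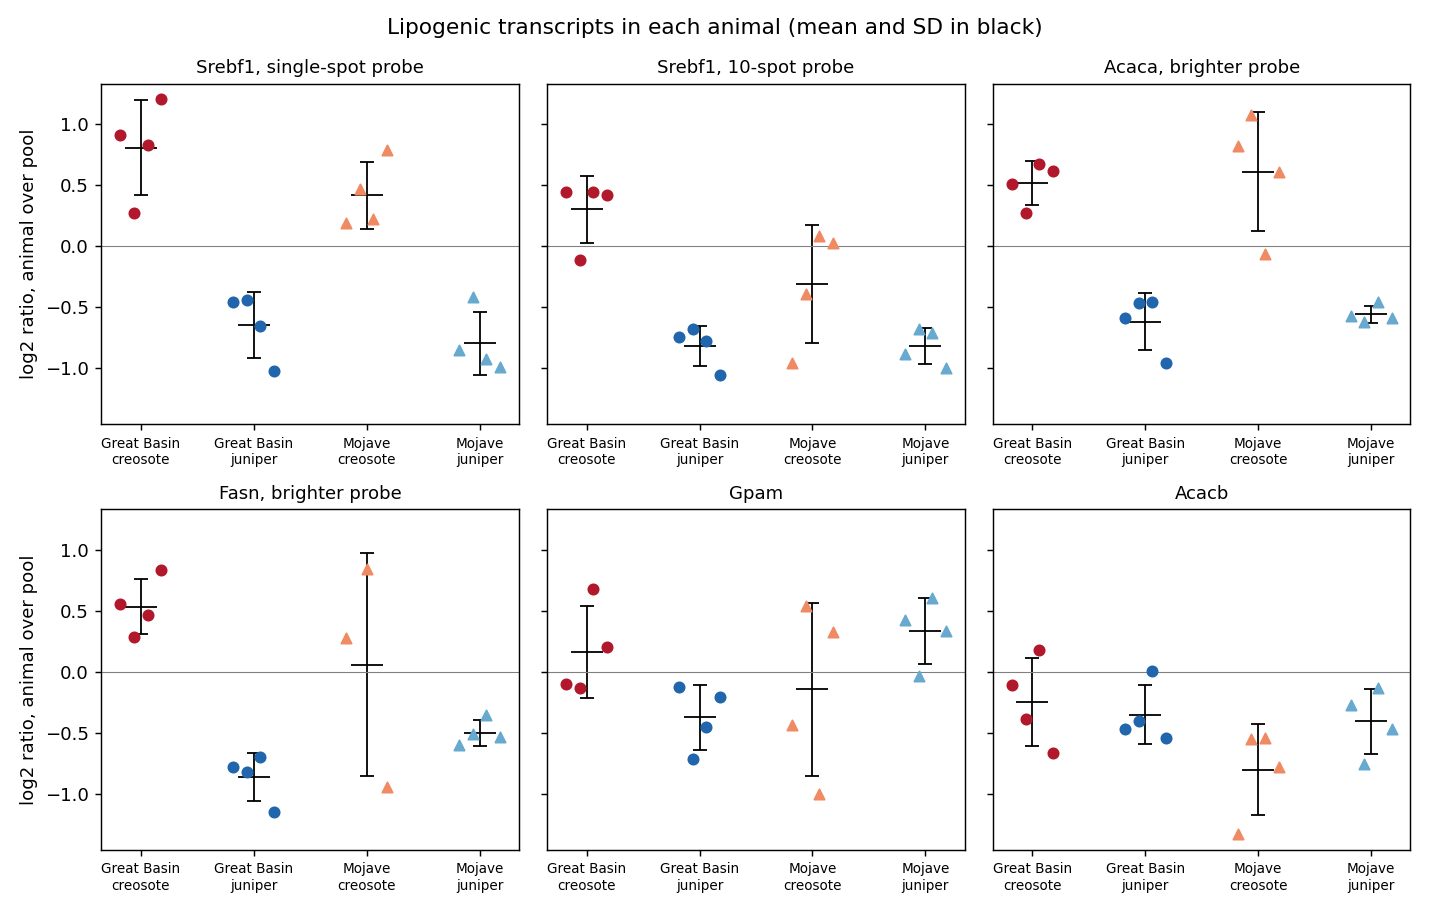
Log2 ratio over the pool (vertical axis) in each animal of the 4 groups (horizontal axis) for 6 probes, with the group mean and SD in black. The creosote and juniper groups are apart in both populations for the single-spot Srebf1 probe and the brighter Acaca probe, while 1 low Mojave creosote animal reaches the juniper range for the 10-spot Srebf1 probe and another for Fasn.

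Thrsp encodes Spot 14, a small nuclear protein that promotes lipogenic gene expression in liver. Its probe stood at -0.01, -0.12, 0.05 and 0.12 in Great Basin creosote animals and at -0.15, 0.08, 0.10 and 0.22 in Great Basin juniper animals. These groups overlapped, and the difference was -0.05 ± 0.11 (SE; limma adjusted p = 0.877). Mojave creosote animals stood at 0.26, 0.13, 0.16 and 0.46 and Mojave juniper animals at -0.03, -0.01, -0.01 and -0.50. These groups did not overlap, but the difference of 0.35 ± 0.12 (SE) did not pass the threshold (limma adjusted p = 0.0944). With no sex term in the model it was 0.39 and passed (limma adjusted p = 0.0308).

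Of the genes that feed carbon and NADPH into the pathway, Acly differed by 0.00 ± 0.07 (SE; 95% interval from -0.14 to 0.14) in Great Basin and by -0.04 ± 0.07 (SE; 95% interval from -0.20 to 0.11) in Mojave animals. Its 16 values lay between -0.14 and 0.16, a narrow band around the pool. Its mean red signal was 182, and the processing draws ratios of dim probes towards 0. Under the alternatives the Acly difference ran from -0.26 to 0.03 in Great Basin and from -0.18 to 0.05 in Mojave animals, without a call. Me1 was read by a dim probe, above background on 12 of 16 arrays, and by another that was above background on 0 arrays and was not tested. The tested Me1 probe stood at 0.05, 0.14, 0.09 and 0.05 in Great Basin animals on creosote and at -0.09, -0.02, -0.08 and 0.01 in those on juniper. These groups did not overlap, yet the difference of 0.12 ± 0.06 (SE) did not pass the threshold (limma adjusted p = 0.283). In Mojave animals the Me1 difference was 0.02 ± 0.06 (SE; limma adjusted p = 0.908).

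Counted by overlap alone, 5 of the 15 probes had every Great Basin creosote animal above every juniper animal, against 5.1% of all tested probes, and 0 had every creosote animal below, against 5.41%. In Mojave animals 4 of the 15 lay above in this way, against 7.11% of all tested probes, and 0 lay below, against 10%. These counts take no account of sex, and the Mojave creosote group was all male. With 4 animals against 4, the smallest two-sided p that an exact permutation test can give is 0.0286, which is the value these probes reach. Any probe without overlap gives this unadjusted value, so it adds nothing to the overlap counts.

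Acaca encodes the cytosolic carboxylase that commits acetyl-CoA to fatty acid synthesis. Its brighter probe, A_44_P514379, stood at 0.51, 0.27, 0.67 and 0.62 in Great Basin animals on creosote and at -0.59, -0.46, -0.46 and -0.96 in those on juniper. In Mojave animals it stood at 0.82, 1.08, -0.06 and 0.61 on creosote and at -0.57, -0.62, -0.46 and -0.59 on juniper. In both populations all creosote animals lay above all juniper animals, although Mojave creosote animal 3 was close to the pool. The difference was 1.14 ± 0.18 (SE) in Great Basin animals, or 2.20-fold (limma adjusted p = 0.00193). In Mojave animals it was 1.25 ± 0.19 (SE), or 2.39-fold (limma adjusted p = 0.0011). The difference between populations in this response was 0.12 ± 0.27 (SE; limma adjusted p = 0.898), with a 95% interval from -0.45 to 0.68.

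The other Acaca probe, A_42_P489761, was also above background on all 16 arrays but did not separate the diets. Its group means were 0.22 ± 0.06, 0.19 ± 0.08, 0.22 ± 0.23 and 0.21 ± 0.21 (SD, n = 4 each) in Great Basin creosote, Great Basin juniper, Mojave creosote and Mojave juniper animals. The diet difference was 0.03 ± 0.11 (SE; 95% interval from -0.19 to 0.26) in Great Basin and -0.05 ± 0.11 (SE; 95% interval from -0.29 to 0.20) in Mojave animals. The 2 probes carry different accessions for Acaca, and the higher level on creosote rests on 1 of them.

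Acacb encodes the mitochondrial carboxylase, whose malonyl-CoA restrains fatty acid oxidation. It stood at -0.11, -0.38, 0.18 and -0.66 in Great Basin creosote animals and at -0.47, -0.40, 0.01 and -0.54 in Great Basin juniper animals. Mojave creosote animals stood at -1.33, -0.55, -0.54 and -0.78, and Mojave juniper animals at -0.27, -0.75, -0.13 and -0.47. The groups overlapped in both populations. The differences were 0.11 ± 0.20 (SE; limma adjusted p = 0.85) and -0.39 ± 0.22 (SE; limma adjusted p = 0.336).

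Fasn encodes the synthase itself, and its brighter probe was A_44_P235985. Great Basin animals stood at 0.56, 0.29, 0.46 and 0.83 on creosote and at -0.78, -0.82, -0.70 and -1.15 on juniper. The groups were far apart, with a difference of 1.40 ± 0.26 (SE), or 2.64-fold (limma adjusted p = 0.00831). Within slides the difference ranged from 1.11 to 1.61.

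In Mojave animals the brighter Fasn probe varied widely on creosote. Animals 1, 2 and 3 stood at 0.28, 0.84 and -0.94, and the spot of animal 4 was marked as an outlier by the scanner software and was left out. The juniper animals stood close together at -0.60, -0.51, -0.36 and -0.54. Animals 1 and 2 were above all juniper animals and animal 3 was below them. The difference over 3 creosote and 4 juniper animals was 0.64 ± 0.31 (SE) and did not pass the threshold (limma adjusted p = 0.235). Without Mojave creosote animal 3 it was 1.14 and passed (limma adjusted p = 0.00139), and without the dimmest slide, which held that animal, it was 1.19 (limma adjusted p = 0.00656). With the outlier spot kept, a choice made after seeing the data, it was 0.87 (limma adjusted p = 0.105). Mojave creosote animal 3 was also the lowest of its group for the brighter Acaca probe and for Gpam. The population difference in the Fasn response was -0.76 ± 0.40 (SE; limma adjusted p = 0.438), with a 95% interval from -1.63 to 0.11.

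A much dimmer Fasn probe, A_44_P235978, carries the same accession and gave another picture. It was flat in Great Basin animals, at -0.04 ± 0.07 (SE; limma adjusted p = 0.849). In Mojave animals it stood at 0.16, 0.40, 0.19 and 0.12 on creosote and at -0.14, -0.11, 0.07 and 0.00 on juniper, with no overlap. The difference of 0.29 ± 0.08 (SE) passed the threshold (limma adjusted p = 0.0241). That call was lost without Mojave creosote animal 2 (0.23, limma adjusted p = 0.0661), without Mojave juniper animal 1 (0.26, 0.102) and without Mojave juniper animal 2 (0.28, 0.0896). The Fasn calls in the 2 populations therefore came from different probes.

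**Figure D3:**
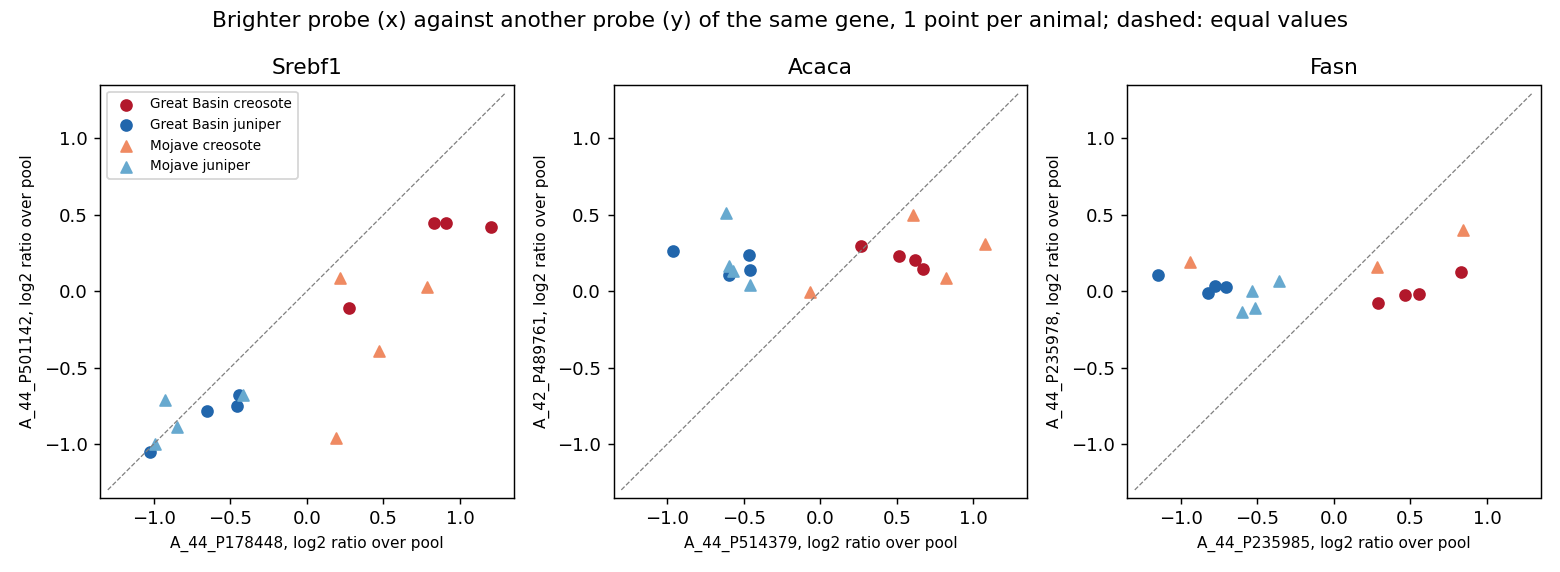
For Srebf1, Acaca and Fasn, the log2 ratio over the pool of the brighter probe (horizontal axis) against that of another probe of the same gene (vertical axis), with 1 point per animal and a dashed line of equal values. The Srebf1 points spread along both axes, while the Acaca and Fasn points spread mainly along the horizontal axis. On that axis the diets are apart for Acaca, and for Fasn 1 Mojave creosote animal at -0.94 lies among the juniper animals.

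Gpam encodes the mitochondrial acyltransferase that starts triglyceride synthesis. Great Basin animals stood at -0.10, -0.13, 0.68 and 0.20 on creosote and at -0.12, -0.72, -0.46 and -0.20 on juniper. Mojave animals stood at -0.43, 0.54, -1.0 and 0.32 on creosote and at 0.43, -0.03, 0.61 and 0.34 on juniper. The diets overlapped in both populations, and the widest spread was among the Mojave creosote animals. On juniper every Mojave animal lay above every Great Basin animal, by 0.71 ± 0.27 (SE), which did not pass the threshold (limma adjusted p = 0.483). The diet difference was 0.54 ± 0.27 (SE; limma adjusted p = 0.342) in Great Basin and -0.35 ± 0.29 (SE; limma adjusted p = 0.55) in Mojave animals. The difference of these 2 responses, -0.89 ± 0.40 (SE), did not pass the threshold either (limma adjusted p = 0.349).

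Dgat2 encodes an acyltransferase of the last step, and its 3 probes gave small differences. They were -0.06, 0.05 and -0.12 in Great Basin animals and -0.15, -0.01 and -0.04 in Mojave animals. All 6 values missed the threshold, and their 95% intervals lay between -0.55 and 0.35. Other processing moved some of them past these bounds without a call. The dim Dgat2 probe A_42_P733209 gave -0.93 in Great Basin animals with the deposited values (limma adjusted p = 0.5), and A_44_P180012 gave -0.61 in Mojave animals under median centring (limma adjusted p = 0.0717).

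No member probe passed the threshold for a difference between the populations. Of the 15 probes, 0 were called for the interaction of population and diet, 0 for the populations on creosote and 0 for the populations on juniper. Over all probes, 0%, 0.0895% and 0% were called by limma in these comparisons, the middle one as 0.0298% higher and 0.0597% lower in Mojave animals, with 4060, 4330 and 2468 probes at an unadjusted p under 0.05. The count over all probes rested on single animals, since without Great Basin creosote animal 4 it was 500 for the interaction and 623 on creosote, and without Mojave creosote animal 3 it was 32 and 351. The count of member probes stayed at 0 without any single animal. On creosote, all Mojave animals lay above all Great Basin animals for 2 of the 15 probes, those of Thrsp and the dimmer Fasn probe, and below them for 1, Me1, against 2.7% and 3.43% of all probes. On juniper they lay above for 2, Gpam and the brighter Fasn probe, and below for 0, against 3.83% and 3.25%. These overlap counts carry no sex term, and all Mojave creosote animals were male. With the diet difference averaged over both populations, 4 of the 15 probes were called, all higher on creosote, where 12.2% of all probes were called, 5.65% as higher and 6.58% as lower. These averages were 1.37 ± 0.14 and 0.85 ± 0.14 for the 2 brighter Srebf1 probes, 1.20 ± 0.13 for Acaca and 1.02 ± 0.20 for Fasn (SE).

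The other genes of the pathway were taken from 5 lists, with the brightest probe of each gene. Of their 78 tested genes, 3 were higher and 8 lower on creosote in Great Basin animals, and 7 were higher and 18 lower in Mojave animals. The median difference was 0.01 and -0.07. Over all probes, 2.03% were called higher and 1.9% lower in Great Basin animals, and 3.81% and 6.24% in Mojave animals, and the counts of each list below are to be read beside these shares. The shares were larger among probes above background on all 16 arrays, and the lists took the brightest probe of each gene. The balance in Mojave animals depends on the scaling, since 37.92% of all Mojave calls were higher here, 13.6% under median centring and 50.43% with Cy5 alone. Of the 32 calls of pathway genes named below, 15 were lost with males only, 11 without the dimmest slide, 10 with the deposited values, 8 with Cy5 alone, 7 under median centring, 2 with an offset of 10 and 1 with a replicate block, and 12 were kept under every alternative, single animals included.

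Among 25 tested regulators of SREBP-1 and of its carbohydrate-sensing partner ChREBP, 0 were higher and 1 was lower in Great Basin animals, and 0 were higher and 6 lower in Mojave animals. Pparg, a nuclear receptor of lipid storage, fell by 0.60 in Great Basin and by 0.71 in Mojave animals (limma adjusted p = 0.00855 and 0.00253). In Mojave animals the insulin-signalling kinase Akt1 fell by 0.80 (limma adjusted p = 0.0024) and Stk11, the kinase that activates AMPK, fell by 0.72 (limma adjusted p = 0.00164). A second Stk11 probe gave -0.17 and was not called. Scap, the escort of SREBP-1, stood at -0.88, -0.29, -0.61 and -0.57 in Mojave creosote animals and at -0.12, -0.09, 0.05 and 0.07 in Mojave juniper animals. These groups did not overlap, and Scap fell by 0.45 (limma adjusted p = 0.0137), a call that was lost without Mojave juniper animal 2 (limma adjusted p = 0.0564) and under 4 other alternatives (limma adjusted p up to 0.227). In Great Basin animals Scap differed by 0.10 (limma adjusted p = 0.662), and the test of the difference between the populations gave an adjusted p of 0.117 (limma).

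The remaining regulators of SREBP-1 release did not pass the threshold. Insig1, itself a target of SREBP, differed by -0.17 and -0.02 in Great Basin and Mojave animals. Insig2 was not called either, at 0.93 and -1.04 on its brightest probe (limma adjusted p = 0.183 and 0.096), but that probe had a value in 2 of the 4 Great Basin creosote and 2 of the 4 Mojave juniper animals, and its second probe gave -0.10 and 0.06. Srebf2, which encodes the factor of cholesterol synthesis, differed by 0.01 and -0.41, and by -0.03 and -0.13 on its second probe. Nr1h3, the oxysterol receptor LXR alpha that induces Srebf1, differed by 0.02 and 0.43, the second with a limma adjusted p of 0.0826. The gene of ChREBP itself, listed as Wbscr14, differed by -0.15 and 0.09 (limma adjusted p = 0.249 and 0.495).

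Of 20 tested genes of carbon and NADPH supply, 1 was higher and 1 lower in Great Basin animals, and 2 were higher and 3 lower in Mojave animals. Khk, which phosphorylates fructose, rose by 0.34 and by 0.87 (limma adjusted p = 0.0331 and 0.00018). Acss2, which makes acetyl-CoA from acetate, rose by 0.80 in Mojave animals (limma adjusted p = 0.0148) and differed by 0.63 in Great Basin animals, where it missed the threshold (limma adjusted p = 0.0618). The Acss2 call was lost without Mojave juniper animal 2 (limma adjusted p = 0.0724), and the Great Basin Khk call without any 1 of 5 animals, creosote 2 and 4 and juniper 1, 3 and 4 (limma adjusted p from 0.0612 to 0.11). Cs, citrate synthase, fell by 0.73 and by 0.55 (limma adjusted p = 0.0117 and 0.0432), and its second probe fell by 0.56 in both populations. The Mojave Cs call on the brightest probe was lost without any 1 of 11 animals (limma adjusted p from 0.0573 to 0.147). Dlat, a subunit of pyruvate dehydrogenase, fell by 1.21 in Mojave animals by its brightest probe, and its second probe gave -0.02. H6pd, which makes NADPH in the endoplasmic reticulum, fell by 0.59 in Mojave animals (limma adjusted p = 0.0253), a call lost without any 1 of 4 animals (limma adjusted p from 0.0516 to 0.0836).

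Fatty acid elongases and desaturases lengthen and unsaturate fatty acids, some acting on the palmitate that Fasn makes and others on polyunsaturated fatty acids from the diet, and 8 genes of this list were tested. In Great Basin animals 2 were higher and 2 lower, and in Mojave animals 3 were higher and 2 lower. Elovl6, which extends palmitate, rose by 2.67 and 2.53 by its brightest probe, while its second probe gave -0.07 and 0.03. Scd2, a stearoyl-CoA desaturase, rose by 1.10 and 1.88, and Elovl2, an elongase of polyunsaturated fatty acids, fell by 0.96 and 1.54. A second Elovl2 probe gave -0.36 and -0.46, and missed the threshold in Great Basin animals (limma adjusted p = 0.093). Scd1, another stearoyl-CoA desaturase, rose by 0.52 in Mojave animals (limma adjusted p = 0.00809). Fads2, a desaturase of polyunsaturated fatty acids, fell by 0.61 in both populations (limma adjusted p = 0.0388 and 0.0292), and these calls were lost without any 1 of 6 animals in Great Basin and any 1 of 5 in Mojave fits (limma adjusted p from 0.0697 to 0.121 and from 0.057 to 0.162). One dimmer Scd2 probe gave -0.27 in Great Basin animals, where it was called lower (limma adjusted p = 0.0172), and -0.05 in Mojave animals. Another gave 0.46 and 2.50, and was called higher in Mojave animals (limma adjusted p = 0.0108). The probes of Scd2 thus disagreed in both populations, and in Great Basin animals their calls went in opposite directions.

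Of 6 tested genes that degrade malonyl-CoA or carry acyl groups, 0 were higher and 2 lower in Great Basin animals, and 0 were higher and 1 lower in Mojave animals. Mlycd, which removes malonyl-CoA, fell by 0.53 in both populations (limma adjusted p = 0.0234 and 0.0196). The Great Basin Mlycd call was lost without any 1 of 5 animals, creosote 1 and 4 and juniper 1, 3 and 4 (limma adjusted p from 0.0519 to 0.0881), and the Mojave call without juniper animal 2 (0.1). Fabp1, the fatty acid carrier of liver, fell by 1.03 in Great Basin animals and by 0.81 there on its second probe, and it differed by -0.16 in Mojave animals. The Great Basin Fabp1 call on the brightest probe was lost without juniper animal 1 or 2 (limma adjusted p = 0.0587 and 0.0557).

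Of 19 tested genes of triglyceride assembly and storage, 0 were higher and 2 lower in Great Basin animals, and 2 were higher and 6 lower in Mojave animals. Agpat3, an acyltransferase of phosphatidic acid synthesis, fell by 0.59 and 0.69, and Mttp, which loads triglyceride onto lipoproteins, fell by 0.58 and 0.66. Dgat1, the other enzyme of the last step, fell by 0.73 in Mojave animals on its brightest probe, and its second probe fell by 0.54 and 0.67. The acyl-CoA synthetases Acsl5 and Acsl3 rose by 0.91 and 0.50 in Mojave animals (limma adjusted p = 0.00768 and 0.0118), and the Acsl3 call was lost without Mojave juniper animal 1 (0.44, limma adjusted p = 0.0616) and under 5 other alternatives, reaching 0.06 under median centring (limma adjusted p = 0.786). Pnpla2, the lipase that starts triglyceride breakdown, fell by 0.78 in Mojave animals (limma adjusted p = 0.0307), a call lost without any 1 of 7 animals (limma adjusted p from 0.0511 to 0.0867).

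**Figure D4:**
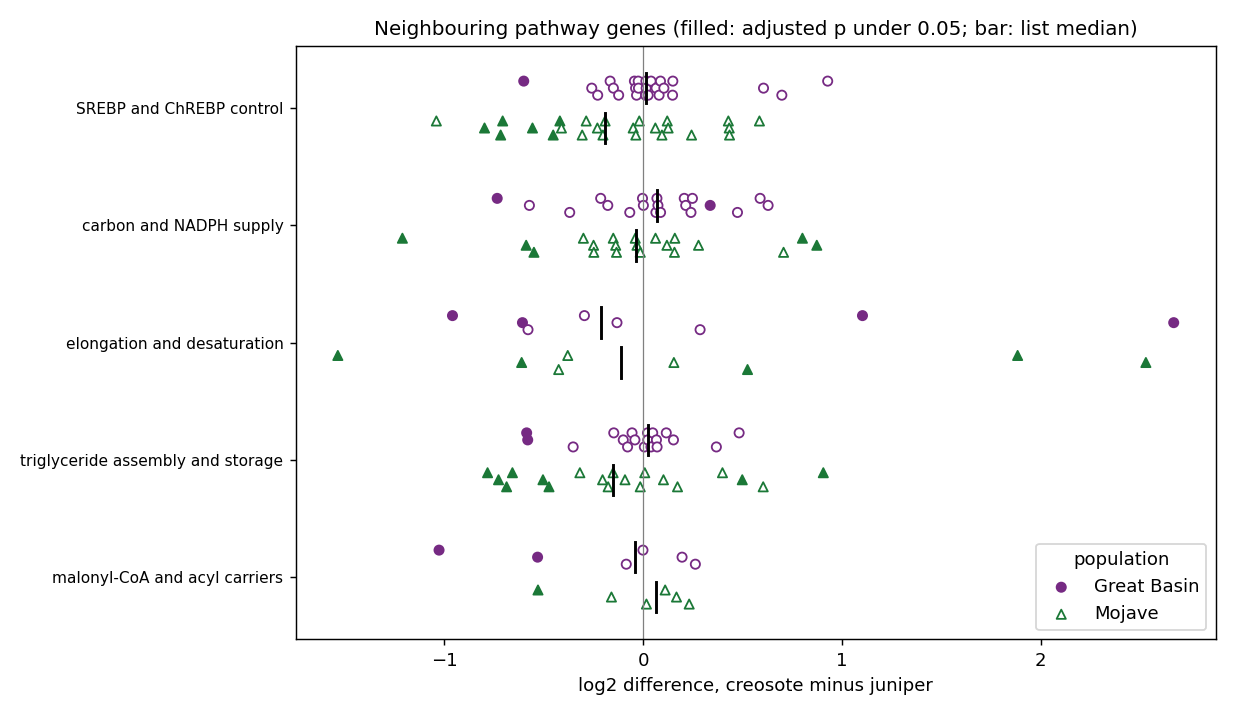
Log2 difference between creosote and juniper (horizontal axis) of each tested gene in 5 pathway lists (vertical axis), for Great Basin (circles) and Mojave (triangles) animals, with filled symbols for an adjusted p under 0.05 and a black bar at the list median. The list medians lie between -0.21 and 0.07, and Elovl6 and Scd2 are the filled points farthest to the right.

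Markers of cell types were read on the same arrays, since a liver sample mixes cells and fewer cells of a type cannot be told apart from less RNA per cell. Of 12 hepatocyte markers 10 were tested, and 4 were higher on creosote in Great Basin and 5 in Mojave animals, with 0 lower in both, where 2.03% and 3.81% of all probes were called higher. Those shares were larger among probes above background on all 16 arrays. The mean ratio of the hepatocyte markers to the pool ranged from 1.43 to 1.71 and from 1.24 to 1.61 in Great Basin and Mojave animals on creosote, and from 0.919 to 1.03 and from 0.881 to 0.953 on juniper. Albumin (Alb) rose by 1.62 in Mojave animals (limma adjusted p = 0.00393). The hepatocyte markers that were called thus differed in the same direction as the called probes of Srebf1, Acaca and Fasn, and the mean marker ratio was higher in every creosote animal than in any juniper animal. Their part in that result was not tested. Fat cells also express these genes. Of 12 adipocyte markers 7 were tested, 3 were not on the array, and 2, Adipoq and Cfd, did not pass the background filter. Of the 7 tested, 0 were higher in either population, and 1, the lipase Lipe, was lower in Mojave animals. Plin and Fabp4 were above background on only 6 and 8 of 16 arrays, so the list read fat cells weakly. The mean adipocyte ratio lay between 0.908 and 1.08 in all 16 animals. Of 12 tested markers of pancreatic acinar cells, 1 was higher in Great Basin and 2 in Mojave animals, with Amy2 up by 1.89 and 2.23. Their mean ratio, too, was higher in every creosote animal than in any juniper animal. On creosote it ranged from 1.092 to 1.219 in Great Basin and from 1.085 to 1.878 in Mojave animals. On juniper it ranged from 0.9385 to 0.9736 and from 0.894 to 0.9671. Albumin, Lipe and Amy2 were chosen for mention after their values were seen. Their part was not tested either. Kupffer cell, stellate cell, endothelial and cholangiocyte markers gave 29 tested genes, of which 2 were higher and 1 was lower in Great Basin and 1 was higher and 0 were lower in Mojave animals.

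Over the 16 arrays, the probes whose values followed the brightest Srebf1 probe most closely were those of Rdh5, a retinol dehydrogenase (Pearson r = 0.95 and, for its second probe, 0.94), Klk8, a serine protease (0.94), Aurkaip1 (0.92) and Cox5b, a subunit of cytochrome c oxidase (0.91), among 13033 probes compared. The 16 arrays share the diet groups and the reference pool, so these values are a description. Rdh5 rose by 0.90 in Great Basin and 0.55 in Mojave animals, and Klk8 by 1.28 and 1.07. Probes of the 10-gene set were left out of this search.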

How the data were processed

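Liver RNA of 16 animals was read on 16 two-colour Agilent rat arrays, with the animal in Cy5 and the pool in Cy3 on every array. The deposited scanner files hold mean signals and background as linear intensity, made with Agilent Feature Extraction 9.1.3.1 per the submitters' processing notes. A deposited table of log2 values matched the ratio of processed red to green signal, animal over pool, to within 5e-10, so it was not centred further.

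Signals were analysed with limma 3.58.1 under R 4.3.3: normexp background correction (offset 50) and loess within arrays were applied, outlier spots were dropped and the spots of a probe averaged. The offset draws ratios of dim probes towards 0. Probes well above background on at least 4 of 16 arrays, with a value in every group, were tested (30154). One model held a mean for each of the 4 groups plus sex. The model fit and the adjustment of its p-values were tested on simulated log ratios, while the earlier steps were not. Differences are creosote minus juniper or Mojave minus Great Basin, two-sided, with limma p-values adjusted by Benjamini-Hochberg. The number of arrays limits the precision. Members and lists were chosen with earlier results of these data known. Pathway genes named are up to 3 called higher and 3 called lower per list and diet comparison, by size, each with its value in both populations where given, plus Wbscr14, Scap, Insig1, Insig2, Srebf2 and Nr1h3. Alternatives were the offset, the deposited values, median centring, Cy5 alone, dim-probe filters, 1 probe per gene, sex, slide, replicate number, outlier spots kept, and leaving out each animal.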

Additional observations from a re-analysis of the deposited data

Results flagged for a closer look

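In 8 of 59 sets of 4 animals, the lowest or highest animal lay farther from the other 3 than Dixon's limit allows, which chance gives in about 1 of 20 sets. Great Basin creosote animal 2 read -0.11 on the 10-spot Srebf1 probe, and Mojave juniper animal 4 read -0.16 on the dim Srebf1 probe. Mojave juniper animal 4 also read -0.50 for Thrsp. For Acly, Mojave creosote animal 3 read -0.14 and Mojave juniper animal 2 read 0.16. For Dgat2, Great Basin creosote animal 4 read -0.14 on the dim probe, and Great Basin creosote animal 2 and Mojave juniper animal 2 read 0.53 and 0.40 on A_43_P15649.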

How the results depend on the processing

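The 7 called diet differences of member probes were refitted 201 times under 29 alternatives. In 189 refits the direction and the call stayed, in 12 the call was lost, and in 0 the sign changed. Of the 12, 9 were those of the dimmer Fasn probe in Mojave animals and 3 came with males only, which leaves 2 animals in 3 of the groups. With males only, 1 member probe was called in Great Basin animals and 2 in the averaged comparison. With median centring in place of loess, 3 member probes were called for the interaction (Fasn, Gpam and the 10-spot Srebf1 probe, at -1.45, -1.48 and -1.06) and 4 for the populations on creosote (Srebf1 at -0.76 and -0.94, Acacb at -0.91, Fasn at -0.92). The cause was not tested. Leaving out each animal gave 4 to 4 called probes in Great Basin, 2 to 4 in Mojave, 4 to 4 in the averaged comparison and 0 to 0 in the other comparisons. The Acaca probe A_42_P489761 was called lower, at -0.48, in Mojave animals under median centring. The 23 uncalled diet differences changed sign in 54 of 651 refits and gained a call in 5.

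Over all probes, the 1183 calls in Great Basin animals became 174 with males only, 430 without the dimmest slide, 778 with the deposited values and 684 to 1398 without single animals (732 without creosote animal 1, 684 and 704 without juniper animals 1 and 4). The 3030 Mojave calls became 5624 under median centring, 1285 with Cy5 alone, 1952 with the deposited values, 1274 with males only, and 1985 and 1895 without Mojave juniper animals 1 and 2. The share of calls that were higher was 51.65% in Great Basin and 37.92% in Mojave animals, 63.83% and 13.6% under median centring, and 40.77% and 50.43% with Cy5 alone. Median centring gave 2972 calls for the interaction and 3686 for the populations on creosote, and a model with no sex term gave 215 and 346. Without single animals the interaction had 0 to 500 calls and the populations on creosote 0 to 623. The interaction had 500, 62 and 32 without Great Basin creosote animal 4 and Mojave creosote animals 4 and 3. The populations on creosote had 623 and 123 without Great Basin creosote animals 4 and 2, 351, 81 and 0 without Mojave creosote animals 3, 4 and 1, and 6 without Great Basin creosote animal 1. Of 32 named calls of pathway genes, 20 stayed without any single animal, 12 were lost without some animal, and 0 changed sign.

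With replicate number as a block (replicate block), 4 member probes were called in Great Basin and 2 in Mojave animals, where the dimmer Fasn probe had a limma adjusted p of 0.053. Same-numbered animals did not deviate together (r from -0.167 to 0.144), and 2 of 16 animals correlated best with their own number. With 4 animals per group this check cannot settle whether the numbers mark a pairing. Signal limits the dim probes of Srebf1, Me1 and Dgat2, which were above background on 9, 12 and 10 of 16 arrays. The probes of Acly and Thrsp and the dimmer Fasn probe were above background on all 16, but with mean red signals of only 182, 161 and 202.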
